A study of Mus musculus with 12 samples.

Results

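The comparison described here sets 3 libraries treated with an antibody against PD-1 (antiPD1) against 3 untreated libraries of the mouse hepatoma line Hepa1-6. All 6 carry the label Hepa1-6 with the tissue given as liver, and all are total RNA. Genes were tested where at least 10 reads were counted in at least 3 of these 6 libraries, which kept 13926 of the 21878 genes in the table. The remaining 6 of the study's 12 libraries received IFNa alone or IFNa with an antibody against PD-1 (called the combination here). They entered the fit for the estimate of spread. The labels give no dose, antibody clone, time, host strain or sex, and no statement that replicates came from separate cultures or animals, so p-values measure only the spread between these samples, which may be technical.

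PD-1 is an inhibitory receptor on activated T cells. Its ligands PD-L1 and PD-L2 are made by tumour cells, macrophages and dendritic cells, and their binding damps signalling through the T cell receptor. An antibody that blocks PD-1 is known to act first on T cells, and interferon gamma from reactivated T cells is the classical inducer of MHC genes, chemokines and PD-L1 in the surrounding tissue.

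Levels are given in CPM, the counts of a gene per 1000000 counts of its TMM-scaled library, in the order of replicates 1, 2 and 3 of each group. Fold changes are log2 of antiPD1 over untreated, and a gene is said to have risen or fallen where the adjusted p of edgeR was under 0.05. The standard error (SE) is the size of the fold change divided by the square root of the F statistic of its test. Hepatocyte lineage RNA was abundant in every library. Alb, serum albumin, had 11149, 7241 and 16052 CPM in antiPD1 libraries, against 11755, 10217 and 10537 CPM in untreated libraries. RNA of other cells was present too, in both groups. The T cell receptor signalling subunit Cd3e, named here as a marker and chosen after its values were seen, had 5.44, 12 and 25.6 CPM in antiPD1 libraries, against 2.71, 2.46 and 2.38 CPM in untreated libraries, and the libraries are therefore not described as RNA of a pure hepatoma culture.

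Library totals ran from 32.9 to 35.1 M counts (1 M is 1000000) in the antiPD1 group and from 31.3 to 32.6 M in the untreated group, so that 3 counts, taken as the floor of detection, equalled 0.083 to 0.0979 CPM in antiPD1 libraries and 0.0915 to 0.101 CPM in untreated libraries. AntiPD1 replicate 3 stood apart. On the first principal component, which held 56.2% of the variance over all 12 libraries, it scored 88.5, against 23.7 and 10.4 for antiPD1 replicates 1 and 2, and −71.5, −69.8 and −20.4 for the untreated replicates 1, 2 and 3. Its correlation of log CPM with the other antiPD1 libraries was 0.9561 and 0.9481, below the 0.9757 between those libraries, and its voom quality weight was 0.203, against 1.08 and 0.747. Untreated replicate 3 lay nearer to the antiPD1 side than the other untreated libraries. Calls, list medians and the leading genes are given below with and without antiPD1 replicate 3.

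With all libraries 1361 genes rose (9.77% of the genes tested) and 712 fell (5.11%). When antiPD1 replicate 3 was left out, 238 genes rose (1.71%) and 138 fell (0.991%). Of the 1361 rises, 234 (17.2%) were also called without that library, and of the 712 falls, 134 (18.8%). Every one of the 1361 rises and 712 falls kept its direction without it. The genes were chosen by a fit that includes the remaining libraries, so the kept directions are not independent support. AntiPD1 replicate 3 held the highest of the 3 antiPD1 values in 1259 of the 1361 rises (92.5%), and the lowest in 513 of the 712 falls (72.1%). The median log2 fold change of the rises was 1.84 with all libraries and 1.34 without replicate 3, and that of the falls −0.57 and −0.48, beside −0.01 and 0.01 for all genes tested. Rises were more numerous than falls and larger on the log scale. Of the named genes that passed with all libraries and have no value without replicate 3 in the text, Abcd2, Akr1b7, Cd226, Cxcl5, Fpr2, H2-D1, H2-DMa, H2-Q6, H2-Q7, Il18r1, Mzb1, Olfml3, Pkp1, Pla2g2d, Serpinf2, Slc4a11, Tmed6 and Ugt2b34 also passed without it. For other such genes the text says so where they did, and the rest did not pass.

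Whether the 2 groups overlap can be read without a test. In 2433 genes (17.5%) all 3 antiPD1 values lay above all 3 untreated values, and in 2590 genes (18.6%) all lay below. The number of calls rested on single untreated libraries as well: without untreated replicate 1 only 5 genes were called, and without untreated replicate 2 only 6. A fit of these 6 libraries alone called 0 genes at an adjusted p under 0.05, with 3834 at an unadjusted p under 0.05 in edgeR, so the calls depend on the spread estimated over all 12 libraries. The 5 genes that passed without untreated replicate 1 all passed without untreated replicate 2. They are Jchain, Cyp2a4, Olfml3, Pkp1 and Tmed6, and the last 3 are outside the rule for named genes and were chosen after their values were seen. Olfml3, an olfactomedin-like secreted protein, had 61.6, 64.3 and 77.3 CPM in antiPD1 libraries, against 28.7, 20.6 and 29.7 CPM in untreated libraries. Pkp1, the desmosomal protein plakophilin-1, had 7.99, 8.03 and 7.25 CPM in antiPD1 libraries, against 18.6, 26.0 and 22.7 CPM in untreated libraries, and Tmed6 had 11.9, 13.5 and 10.6 CPM in antiPD1 libraries, against 29.7, 32.2 and 23.9 CPM in untreated libraries. In these 3 genes antiPD1 replicate 3 was close to the other antiPD1 libraries and the groups did not overlap.

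**Figure D1:**
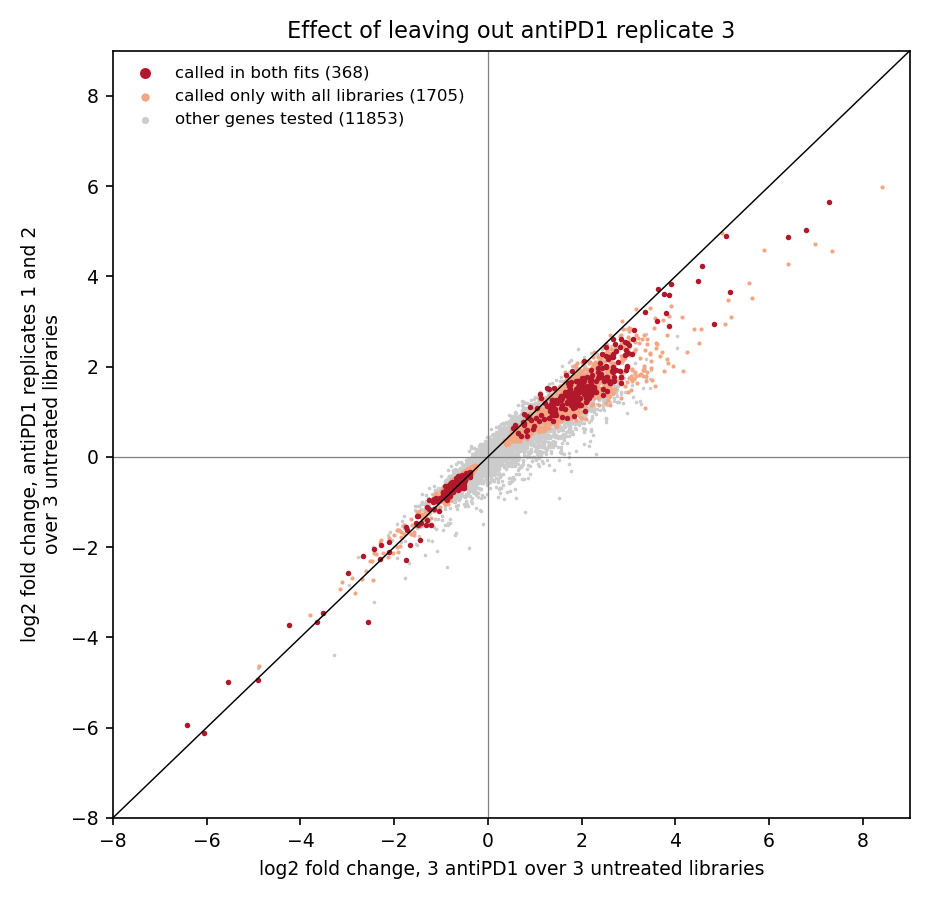
Log2 fold change of every gene tested with 3 antiPD1 libraries (horizontal axis) and with replicates 1 and 2 only (vertical axis), over the same 3 untreated libraries; the diagonal marks equal values. Most rises lie below the diagonal (median 1.84 with all libraries and 1.34 without replicate 3), and the 368 genes called in both fits are drawn in dark red.

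The gene for PD-1 and both of its ligand genes rose with all libraries, and none passed without antiPD1 replicate 3. Pdcd1, which encodes PD-1 (mm10 chromosome 1, 94038305 to 94052553), had 5.24, 10.1 and 25.2 CPM in antiPD1 libraries, against 2.33, 1.96 and 2.35 CPM in untreated libraries. Each antiPD1 library lay above every untreated one, and the 3 antiPD1 libraries spread widely. Its log2 fold change was 2.61 (SE 0.60, adjusted p = 0.0236), and 1.81 (SE 0.51, adjusted p = 0.0788) without replicate 3.

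Cd274, which encodes PD-L1 (chromosome 19, 29367455 to 29388095), had 56.5, 50 and 168 CPM in antiPD1 libraries, against 20.1, 24.5 and 36.5 CPM in untreated libraries. The groups did not overlap, with replicates 1 and 2 close together and replicate 3 far above. The log2 fold change was 1.76 (SE 0.43, adjusted p = 0.0272), and 0.99 (SE 0.26, adjusted p = 0.0681) without replicate 3. Pdcd1lg2, the PD-L2 gene, had 7.48, 13.1 and 38.1 CPM in antiPD1 libraries, against 3.49, 5.33 and 4.51 CPM in untreated libraries. Batf, a transcription factor induced downstream of PD-1, had 2.01, 3.71 and 9.08 CPM in antiPD1 libraries, against 1.20, 0.641 and 1.49 CPM in untreated libraries. These were the 4 of 8 genes of the PD-1 pathway list that rose, and the list's median log2 fold change was 1.40 with all libraries and 0.71 without replicate 3.

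T cell genes rose as a group. Of 24 genes tested in the T cell identity list 20 rose and 0 fell, and the list's median log2 fold change was 2.34 with all libraries and 1.68 without antiPD1 replicate 3. There, 3 genes passed, namely Bcl11b, a transcription factor that fixes T cell identity, Cd5, a brake on antigen receptor signalling, and Cd247, the CD3 zeta chain. Bcl11b had 3.0, 4.73 and 10.9 CPM in antiPD1 libraries, against 0.937, 0.675 and 0.824 CPM in untreated libraries, a log2 fold change of 2.93 (SE 0.58, adjusted p = 0.0198). Without replicate 3 the value was 2.26 (SE 0.51, adjusted p = 0.0497). The lowest antiPD1 library was above the highest untreated library by a wide margin. Cd8a, the coreceptor of cytotoxic T cells, had 12.4, 23.7 and 41.7 CPM in antiPD1 libraries, against 5.30, 5.84 and 5.52 CPM in untreated libraries.

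Cd4, the coreceptor of helper and regulatory T cells, differed among the antiPD1 libraries more than Cd8a did. It had 5.78, 27.1 and 63.1 CPM in antiPD1 libraries, against 5.53, 3.71 and 4.09 CPM in untreated libraries. AntiPD1 replicate 1 barely exceeded the highest untreated library, and the log2 fold change of 2.85 (SE 0.75, adjusted p = 0.0323) was 1.90 (adjusted p = 0.126) without replicate 3. Gimap3, a GTPase of lymphocytes, had 7.42, 17.4 and 35.6 CPM in antiPD1 libraries, against 3.01, 1.99 and 2.62 CPM in untreated libraries, and passed in both fits. In all of these genes replicate 1 was the lowest antiPD1 library and replicate 3 the highest. The list's summed level was 216, 342 and 586 CPM in antiPD1 libraries, against 180, 171 and 167 CPM in untreated libraries. Much of the untreated sum came from Tcf7, which had 109, 108 and 81.6 CPM there, against 77.2, 105 and 63.1 CPM in antiPD1 libraries, and is also a Wnt pathway factor that epithelial cells can express.

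Genes of killing and effector function moved the same way. Of 16 cytotoxic effector genes 15 rose, with a median log2 fold change of 2.27, and 1.56 without antiPD1 replicate 3, where 1 passed. That gene was Srgn, the granule proteoglycan serglycin, with 105, 72.1 and 192 CPM in antiPD1 libraries, against 24.8, 28.1 and 47.1 CPM in untreated libraries. Ifng, interferon gamma itself, had 1.81, 2.68 and 4.90 CPM in antiPD1 libraries, against 0.485, 0.473 and 0.580 CPM in untreated libraries. Its groups were well separated, at a log2 fold change of 2.60 (SE 0.52, adjusted p = 0.0198), and 2.14 (SE 0.51, adjusted p = 0.0537) without replicate 3. Gzmk, granzyme K, had 1.90, 4.90 and 9.21 CPM in antiPD1 libraries, against 1.0, 0.574 and 0.519 CPM in untreated libraries. Gzmb, granzyme B, was the exception: it had 10.3, 10.4 and 24.8 CPM in antiPD1 libraries, against 6.11, 7.93 and 7.87 CPM in untreated libraries, and did not pass (log2 fold change 1.05, adjusted p = 0.0723). In the NK cell list 3 of 7 genes tested rose and 0 fell, among them Il2rb, the IL-2 receptor beta chain that T cells share, with 15.5, 31.7 and 64.9 CPM in antiPD1 libraries, against 9.15, 9.66 and 10.9 CPM in untreated libraries. Without replicate 3 none of the NK cell genes passed.

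Most regulatory T cell genes rose as well. Of 10 tested, 8 rose and 0 fell, with a median log2 fold change of 2.31, and 1.54 without antiPD1 replicate 3. Foxp3, their lineage factor, had 0.737, 1.83 and 5.91 CPM in antiPD1 libraries, against 0.355, 0.675 and 0.336 CPM in untreated libraries. All 3 antiPD1 values were above the untreated ones, the lowest of them only just, and the log2 fold change of 2.62 (SE 0.70, adjusted p = 0.0323) was 1.51 (adjusted p = 0.127) without replicate 3. Ctla4, an inhibitory receptor of regulatory and activated T cells, had 2.01, 3.6 and 35.8 CPM in antiPD1 libraries, against 1.94, 0.709 and 1.37 CPM in untreated libraries. Nearly all of its difference lay in replicate 3. Tnfrsf9, which encodes the costimulatory receptor 4-1BB, had 28.8, 16.3 and 26.1 CPM in antiPD1 libraries, against 6.53, 6.65 and 8.72 CPM in untreated libraries. Replicate 3 lay between replicates 1 and 2, and the log2 fold change was 1.70 (SE 0.27, adjusted p = 0.0186), and 1.64 (SE 0.31, adjusted p = 0.0373) without it.

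Among 18 other inhibitory and exhaustion genes 11 rose and 0 fell, and 3 passed without antiPD1 replicate 3. Those 3 are expressed by myeloid cells as well as T cells. Vsir, the checkpoint protein VISTA, had 43.2, 39.5 and 116 CPM in antiPD1 libraries, against 12.9, 10.8 and 22.2 CPM in untreated libraries. Lilrb4a, an inhibitory receptor of myeloid cells, had 42.8, 40.2 and 78.0 CPM in antiPD1 libraries, against 11.6, 12.4 and 23.1 CPM in untreated libraries. Cd200r1, the receptor for CD200, had 6.26, 5.81 and 12.1 CPM in antiPD1 libraries, against 2.0, 1.52 and 2.93 CPM in untreated libraries. In each of the 3, replicates 1 and 2 agreed closely and were above all untreated values. Of 11 costimulation genes 5 rose, with Cd226, an activating receptor that shares ligands with TIGIT, at 2.98, 4.40 and 7.28 CPM in antiPD1 libraries, against 0.840, 0.338 and 1.01 CPM in untreated libraries (log2 fold change 2.73, SE 0.50, adjusted p = 0.0186).

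Most B cell genes and some plasma cell genes rose. Jchain, the joining chain that links immunoglobulin polymers (chromosome 5, 88519809 to 88527891), had 21.6, 41.5 and 57.0 CPM in antiPD1 libraries, against 1.81, 1.11 and 2.14 CPM in untreated libraries. The lowest antiPD1 library was far above the highest untreated one. Its log2 fold change was 4.56 (SE 0.42, adjusted p = 0.00262), and 4.23 (SE 0.40, adjusted p = 0.00623) without replicate 3. It was also the single gene that passed a test against a change of at least 2-fold.

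Pou2af1, a coactivator of immunoglobulin transcription, had 1.53, 2.02 and 2.38 CPM in antiPD1 libraries, against 0.129, 0.135 and 0.305 CPM in untreated libraries, and passed in both fits. Mzb1, a chaperone of antibody secretion, had 1.30, 2.05 and 2.48 CPM in antiPD1 libraries, against 0.162 CPM in untreated replicate 1 and 0 counts in untreated replicates 2 and 3. Cd79b, part of the B cell receptor complex, had 2.07, 1.88 and 2.19 CPM in antiPD1 libraries, against 0.291, 0.304 and 0.366 CPM in untreated libraries. Its 3 antiPD1 values were nearly equal, with a log2 fold change of 2.66 (SE 0.39, adjusted p = 0.0142), and 2.62 (SE 0.43, adjusted p = 0.0321) without replicate 3. Ms4a1, which encodes CD20, had 0.992, 1.08 and 1.11 CPM in antiPD1 libraries, against 0.097, 0.135 and 0.305 CPM in untreated libraries. In all, 10 of 12 B cell genes and 4 of 9 plasma cell genes rose and 0 fell. Mzb1 and some B cell genes not named here reached the minimum of 10 counts in the antiPD1 libraries only. For such members the filter itself favoured a rise, so these counts of rises are not read as results about the lists. The median of the B cell list was 2.43 with all libraries and 2.30 without replicate 3, where 2 of its genes passed, Cd79b and such a member. The median of the plasma cell list was 0.85 with all libraries and 0.57 without replicate 3, where 3 passed. Its summed level was 528, 522 and 653 CPM in antiPD1 libraries, against 522, 513 and 522 CPM in untreated libraries. Liver cells also express some members of the plasma cell list. Which cells the RNA of the 5 genes that did not pass came from was not tested.

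Mast cell proteases, at levels of a few CPM at most, rose too. Of 5 mast cell and basophil genes that could be tested, 5 rose, and the other members in the table had too few counts for the test. Mcpt1, Mcpt4 and Tpsb2 reached the minimum of 10 counts in the antiPD1 libraries only. For these genes the filter itself favoured a rise, so the count of rises is not read as a result about the list. Mcpt4, a chymase, had 0.595, 1.58 and 1.47 CPM in antiPD1 libraries, against 0.0646, 0.135 and 0.0610 CPM in untreated libraries. The untreated replicates 1 and 3 were under the floor of 3 counts. Tpsb2, a tryptase, had 0.425, 0.941 and 1.80 CPM in antiPD1 libraries, against 0.0323, 0.101 and 0 CPM in untreated libraries. Both passed without antiPD1 replicate 3, where Mcpt4 had a log2 fold change of 3.62 (SE 0.77, adjusted p = 0.0439). Fitted fold changes of genes with so few counts depend on the prior count of the fit.

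Most macrophage genes rose, and antiPD1 replicate 3 was the highest library for each one named here. Of 25 macrophage and monocyte genes 15 rose and 0 fell, with a median log2 fold change of 1.71, and 1.0 without replicate 3. Lyz2, lysozyme of macrophages and neutrophils, had 393, 366 and 2244 CPM in antiPD1 libraries, against 64.2, 32.4 and 132 CPM in untreated libraries. Replicates 1 and 2 nearly coincided and were well above the untreated libraries, and the log2 fold change was 3.72 (SE 0.79, adjusted p = 0.0205), and 2.32 (SE 0.53, adjusted p = 0.0503) without replicate 3. Fcgr3, an activating antibody Fc receptor, had 68.8, 70.6 and 218 CPM in antiPD1 libraries, against 30.8, 25.8 and 41.5 CPM in untreated libraries. Fcgr1, the high-affinity Fc receptor, had 18.4, 16.3 and 37.1 CPM in antiPD1 libraries, against 6.08, 4.86 and 9.91 CPM in untreated libraries. These Fc receptor genes were the 2 of the list that passed without replicate 3.

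Csf1r, the receptor on which macrophages depend, had 107, 115 and 352 CPM in antiPD1 libraries, against 52.9, 47.2 and 82.9 CPM in untreated libraries, at a log2 fold change of 1.65 (SE 0.41, adjusted p = 0.0276) and 0.87 (adjusted p = 0.0537) without replicate 3. The summed level of the macrophage list, 6996, 6866 and 17346 CPM in antiPD1 libraries, against 6963, 6585 and 5911 CPM in untreated libraries, rested largely on Apoe, which hepatocytes also make, and did not separate replicates 1 and 2 from the untreated libraries. Of 7 Kupffer cell genes 1 rose, Marco, a scavenger receptor that other macrophages also carry, with 14.2, 10.8 and 53.2 CPM in antiPD1 libraries, against 0.485, 1.45 and 4.55 CPM in untreated libraries. Nos2, inducible nitric oxide synthase of activated macrophages, had 22.7, 11.4 and 158 CPM in antiPD1 libraries, against 2.1, 1.62 and 2.99 CPM in untreated libraries. It passed in both fits, with a log2 fold change of 4.83 (SE 0.91, adjusted p = 0.0196), and 2.94 (SE 0.45, adjusted p = 0.0319) without replicate 3. Arg1, an enzyme of alternatively activated macrophages and of the hepatocyte urea cycle, had 174, 41.2 and 340 CPM in antiPD1 libraries, against 9.47, 19.6 and 47.0 CPM in untreated libraries. Its groups overlapped and it did not pass (log2 fold change 2.86, adjusted p = 0.0745).

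Neutrophil genes were mixed, with 5 of 18 risen and 0 fallen. In 14 of them all antiPD1 values were above all untreated values, beside 17.5% of all genes tested. S100a9, a subunit of calprotectin, had 40.5, 39.2 and 76.9 CPM in antiPD1 libraries, against 10.6, 12.7 and 15.8 CPM in untreated libraries. Cxcr2, the receptor for neutrophil-attracting chemokines, had 4.56, 6.45 and 8.49 CPM in antiPD1 libraries, against 1.55, 1.38 and 2.29 CPM in untreated libraries, and passed in both fits. The defining granulocyte marker Ly6g, added after its values were seen, had 0.935, 0.360 and 0.653 CPM in antiPD1 libraries, against 0.840, 0.338 and 0.763 CPM in untreated libraries and its groups overlapped. Fpr2, a formyl peptide receptor of phagocytes, had 2.30, 5.59 and 13.0 CPM in antiPD1 libraries, against 0.614, 0.743 and 1.10 CPM in untreated libraries. Of 13 dendritic cell genes 6 rose and 0 passed without replicate 3. Among them Clec9a, the receptor that marks cross-presenting dendritic cells, had 2.35, 3.32 and 15.8 CPM in antiPD1 libraries, against 0.679, 0.506 and 1.34 CPM in untreated libraries, and Zbtb46, a factor of classical dendritic cells, had 6.97, 5.95 and 5.45 CPM in antiPD1 libraries, against 2.81, 2.06 and 4.39 CPM in untreated libraries.

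Bulk RNA cannot tell more cells of a type from more RNA per cell, and this holds for each cell type list above. The counts of rises, in these lists and those below, stand against the 9.77% of all genes that rose. Without antiPD1 replicate 3 that share was 1.71%. Counts of falls stand against 5.11%, and 0.991% without that library. Some members of other lists also reached the minimum of 10 counts in the antiPD1 libraries only, and for these the filter itself favoured a rise. Summed levels were highest in antiPD1 replicate 3 for these lists, while replicates 1 and 2 stood in a different order from list to list. The NK cell list summed to 23.6, 48.7 and 95.7 CPM in antiPD1 libraries, against 14.6, 15.7 and 18.6 CPM in untreated libraries, whereas the neutrophil list summed to 328, 306 and 1048 CPM in antiPD1 libraries, against 158, 140 and 144 CPM in untreated libraries. The mast cell and basophil list summed to 29.3, 16.2 and 43.3 CPM in antiPD1 libraries, against 4.56, 4.42 and 9.67 CPM in untreated libraries. Replicate 1 was thus below replicate 2 for T, B and NK cell lists and above it for the neutrophil, mast cell, regulatory T cell, Kupffer cell and macrophage lists. The B cell list summed to 26.0, 35.9 and 71.4 CPM in antiPD1 libraries, against 7.66, 9.15 and 15.0 CPM in untreated libraries, and the cytotoxic list to 219, 221 and 623 CPM in antiPD1 libraries, against 71.3, 72.5 and 111 CPM in untreated libraries. The part of cell number in the gene changes was not tested.

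**Figure D2:**
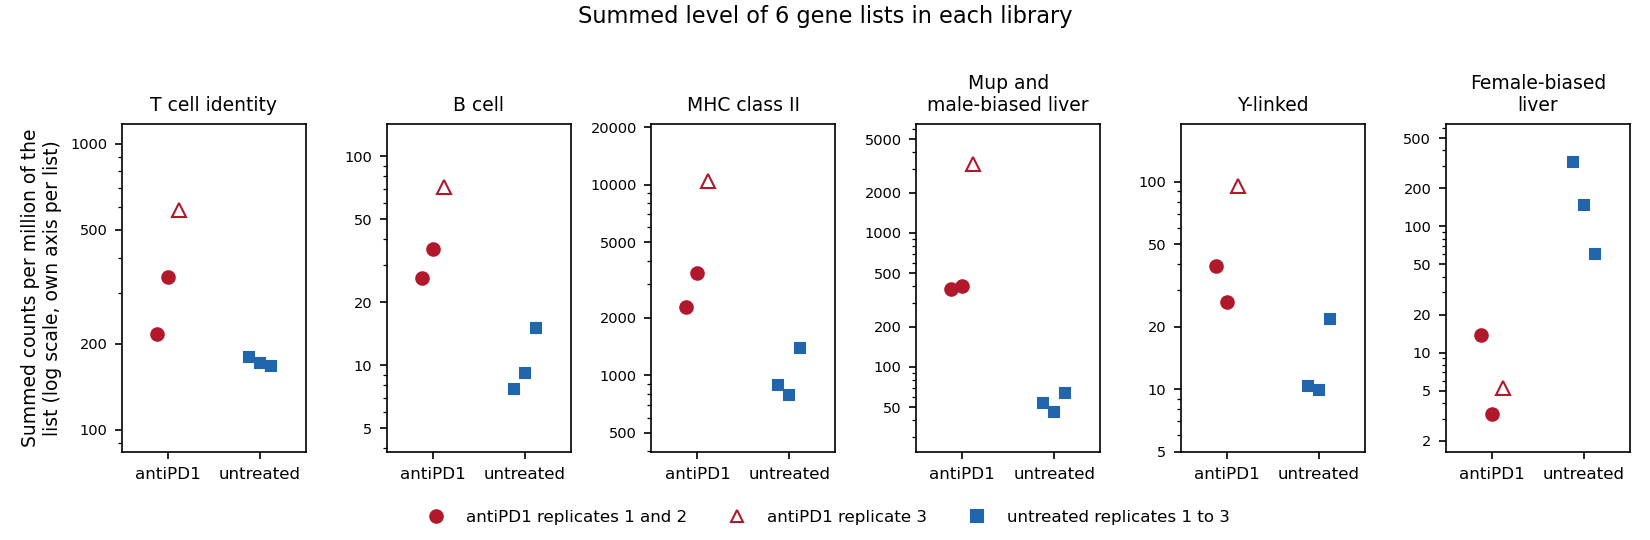
Summed CPM of 6 gene lists in each library (log axes, each list with its own scale), antiPD1 left and untreated right, with antiPD1 replicate 3 as an open triangle. The groups do not overlap in any of the 6 lists, replicate 3 is the highest library in the first 5, and the female-biased liver list runs the other way, from 3.24 to 13.9 CPM in antiPD1 libraries and from 60.1 to 325 CPM in untreated libraries.

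Antigen presentation genes rose across both MHC classes. Of 13 genes of MHC class II presentation 12 rose, with a median log2 fold change of 2.29, and 1.58 without antiPD1 replicate 3, where 2 passed. In all 13 the antiPD1 values were above all untreated values, beside 17.5% of all genes tested. A member not named here reached the minimum of 10 counts in the antiPD1 libraries only, so the filter itself favoured its rise. H2-Ab1, a class II beta chain, had 266, 430 and 1350 CPM in antiPD1 libraries, against 107, 88.9 and 156 CPM in untreated libraries. Its log2 fold change was 2.54 (SE 0.71, adjusted p = 0.0382), and 1.58 (SE 0.61, adjusted p = 0.161) without replicate 3. Ctss, cathepsin S, which trims the invariant chain, had 343, 334 and 1661 CPM in antiPD1 libraries, against 93.2, 88.5 and 146 CPM in untreated libraries. Replicates 1 and 2 nearly coincided, and the log2 fold change was 2.83 (SE 0.59, adjusted p = 0.0201), and 1.64 (SE 0.30, adjusted p = 0.0356) without replicate 3. H2-DMa, which loads peptides onto class II, had 41.4, 64.9 and 134 CPM in antiPD1 libraries, against 21.7, 26.2 and 28.8 CPM in untreated libraries.

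Of 24 genes of MHC class I and peptide loading 14 rose and 0 fell, with a median log2 fold change of 0.95, and 0.60 without antiPD1 replicate 3, where 5 passed, the most of any immune list. H2-K1, a classical class I heavy chain, had 359, 373 and 1478 CPM in antiPD1 libraries, against 79.9, 92.8 and 170 CPM in untreated libraries. Each antiPD1 value was well above the highest untreated one, with a log2 fold change of 2.69 (SE 0.52, adjusted p = 0.0196), and 1.69 (SE 0.27, adjusted p = 0.0321) without replicate 3. H2-D1, the other classical heavy chain, started from a higher level and changed less, with 1380, 1615 and 2760 CPM in antiPD1 libraries, against 842, 1043 and 1080 CPM in untreated libraries (log2 fold change 0.96, SE 0.21, adjusted p = 0.0216). H2-Q7 and H2-Q6, nonclassical chains close in sequence whose reads the counting could have divided either way, had 32.1, 33.5 and 105 CPM and 20.2, 19.4 and 43.2 CPM in antiPD1 libraries, against 6.66, 6.95 and 13.1 CPM and 3.33, 5.03 and 7.99 CPM in untreated libraries.

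Interferon response genes rose in part, with lower medians than the MHC class II list. Of 26 genes of the interferon gamma response 12 rose, with a median log2 fold change of 1.24, and 0.86 without antiPD1 replicate 3, where 1 passed. Of 38 genes of the type I interferon response 16 rose, with medians of 0.77 and 0.57, and 1 passed without replicate 3. No member of either list fell. Of all genes tested 9.77% rose, and 1.71% without replicate 3. The single member per list that passed without replicate 3 is near that share and is not read as a result about the list. Gbp5, a guanylate-binding protein that is a strong interferon gamma target, had 31.2, 33.8 and 90.6 CPM in antiPD1 libraries, against 8.53, 6.72 and 15.7 CPM in untreated libraries. The log2 fold change was 2.33 (SE 0.48, adjusted p = 0.0201), and 1.66 (SE 0.40, adjusted p = 0.0543) without replicate 3. Gbp4, of the same family, had 57.3, 65.8 and 118 CPM in antiPD1 libraries, against 13.0, 21.1 and 33.2 CPM in untreated libraries.

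Cxcl9, an interferon gamma-induced chemokine that attracts T cells through CXCR3, had 150, 186 and 668 CPM in antiPD1 libraries, against 41.5, 37.6 and 74.7 CPM in untreated libraries. Cxcl10, which shares that receptor, had 43.7, 52.2 and 70.9 CPM in antiPD1 libraries, against 15.7, 16.8 and 30.5 CPM in untreated libraries. The groups did not overlap for either, and their log2 fold changes were 2.71 (SE 0.62, adjusted p = 0.0229) for Cxcl9 and 1.40 (SE 0.42, adjusted p = 0.0463) for Cxcl10, with 1.72 (adjusted p = 0.0685) and 1.20 (adjusted p = 0.155) without replicate 3. Samd9l, a translation inhibitor of the type I response, was the one member that passed in both fits, with 74.4, 71.3 and 64.9 CPM in antiPD1 libraries, against 28.2, 44.8 and 45.4 CPM in untreated libraries. There antiPD1 replicate 3 was the lowest of its group. Oasl2, of the oligoadenylate synthetase family, had 38.7, 50.3 and 56.4 CPM in antiPD1 libraries, against 11.4, 18.2 and 25.1 CPM in untreated libraries. In the untreated group replicate 1 was the lowest library for all of Gbp4, Cxcl10, Samd9l and Oasl2.

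The promoters of 4 genes named above are shown, picked because they carry the letters that interferon-activated factors are known to bind. Of these, Ctss is from the MHC class II list and Fcgr1 from the macrophage list. Each sequence is the 250 bases before the start of transcription in RefSeq (assembly GRCm38.p6), 5′ to 3′ on the gene's strand, and capitals mark matches on either strand to GAAA, any 2 bases, GAAA (interferon-stimulated response element), to TTC, any 3 bases, GAA (gamma activated site) or to GGGA, any 2 bases, TTCC (NF-kB site). No match overlaps another in these windows.
Gbp5 (chr3:142496684-142496933, plus strand): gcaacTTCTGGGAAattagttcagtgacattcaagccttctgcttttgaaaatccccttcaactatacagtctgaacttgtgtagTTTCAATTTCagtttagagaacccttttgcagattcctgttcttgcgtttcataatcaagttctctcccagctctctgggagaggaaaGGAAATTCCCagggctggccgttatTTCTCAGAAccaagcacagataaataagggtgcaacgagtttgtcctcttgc
Cxcl10 (chr5:92348890-92349139, minus strand): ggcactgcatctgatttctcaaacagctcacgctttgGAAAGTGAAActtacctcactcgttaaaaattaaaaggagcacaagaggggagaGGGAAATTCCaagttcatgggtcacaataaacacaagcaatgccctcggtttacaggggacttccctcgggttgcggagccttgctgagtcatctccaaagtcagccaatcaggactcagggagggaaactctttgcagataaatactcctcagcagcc
Ctss (chr3:95526536-95526785, plus strand): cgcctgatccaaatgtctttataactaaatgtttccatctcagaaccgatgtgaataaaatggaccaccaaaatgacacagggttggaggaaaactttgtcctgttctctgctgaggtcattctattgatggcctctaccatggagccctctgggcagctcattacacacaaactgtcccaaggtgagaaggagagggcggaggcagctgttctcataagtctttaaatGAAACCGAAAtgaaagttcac
Fcgr1 (chr3:96293970-96294219, minus strand): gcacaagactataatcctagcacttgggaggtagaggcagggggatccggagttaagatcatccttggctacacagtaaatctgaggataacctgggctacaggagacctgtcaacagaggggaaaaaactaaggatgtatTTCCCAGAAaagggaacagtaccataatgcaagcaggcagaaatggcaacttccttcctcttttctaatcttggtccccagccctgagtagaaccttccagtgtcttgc

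Gbp5 holds all 3 kinds of match, and Cxcl10 an interferon-stimulated response element and an NF-kB site. Ctss holds an interferon-stimulated response element and Fcgr1 a gamma activated site. The same windows of Cxcl9, Samd9l and Oasl2, given above with the interferon genes, hold no match. Of the 13926 genes tested, 10658 had a RefSeq promoter. The interferon-stimulated response element stood in 5.5% of the promoters of genes that rose, in 3.02% of those of genes that fell and in 2.84% of all. The gamma activated site stood in 8.74% of the promoters of rises, 5.29% of those of falls and 6.2% of all. The NF-kB site stood in 1.47% of the promoters of rises, 1.7% of those of falls and 1.17% of all. Among genes that also passed without antiPD1 replicate 3, 178 rises and 95 falls had a promoter. In these the interferon-stimulated response element stood in 5.06% of rises and 4.21% of falls, the gamma activated site in 8.99% of rises and 2.11% of falls, and the NF-kB site in 0 of either. These shares are descriptions of letters in a window and were not tested.

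Most chemokine genes and chemokine receptor genes rose. Of 25 chemokine ligand genes 16 rose and 1 fell, and of 16 receptor genes 11 rose and 0 fell. Of all genes tested 9.77% rose and 5.11% fell. Ccl3 and Ccl4, chemokines made by activated T cells and macrophages, had 10.8, 14.6 and 20.3 CPM and 8.16, 10.1 and 17.5 CPM in antiPD1 libraries, against 3.78, 5.37 and 5.52 CPM and 2.91, 2.94 and 3.90 CPM in untreated libraries. Both passed in both fits. Ccl2, the main attractant of monocytes, had 12.8, 7.11 and 7.12 CPM in antiPD1 libraries, against 1.58, 2.63 and 4.33 CPM in untreated libraries. Its log2 fold change was 1.66 (SE 0.37, adjusted p = 0.0217), and 1.81 (SE 0.40, adjusted p = 0.0487) without antiPD1 replicate 3. Ccl5, a chemokine of T and NK cells, had 19.8, 40.5 and 180 CPM in antiPD1 libraries, against 10.2, 7.26 and 6.68 CPM in untreated libraries, and passed only with replicate 3. The fall in the ligand list was Cxcl5, a neutrophil attractant of epithelial cells. It had 19.4, 15.7 and 18.2 CPM in antiPD1 libraries, against 28.0, 27.2 and 38.1 CPM in untreated libraries. Cxcl15, a chemokine that the list leaves out, fell further, at a log2 fold change of −2.10 (adjusted p = 0.0112), and is described below. Ccr1 had 30.7, 26.0 and 40.8 CPM in antiPD1 libraries, against 10.9, 11.7 and 15.5 CPM in untreated libraries, with a log2 fold change of 1.35 (SE 0.21, adjusted p = 0.0151), and 1.17 (SE 0.20, adjusted p = 0.0356) without replicate 3.

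Of 18 cytokine genes 7 rose and 0 fell, and of 19 interferon and cytokine receptor genes 9 rose and 0 fell. Tnfsf13b, which encodes the B cell survival factor BAFF, had 2.64, 3.90 and 7.71 CPM in antiPD1 libraries, against 0.614, 0.743 and 1.13 CPM in untreated libraries, and passed in both fits. Tnfsf10, the death ligand TRAIL, had 8.95, 9.38 and 16.4 CPM in antiPD1 libraries, against 2.17, 2.23 and 4.58 CPM in untreated libraries, and also passed in both. Il18r1, the IL-18 receptor of T and NK cells, had 2.41, 5.29 and 7.54 CPM in antiPD1 libraries, against 0.388, 0.810 and 0.946 CPM in untreated libraries. Of 11 lymphoid structure genes 4 rose, none of them without antiPD1 replicate 3. Cxcl13, the chemokine of B cell follicles, had 3.15, 2.49 and 6.89 CPM in antiPD1 libraries, against 0.097, 0.203 and 0.519 CPM in untreated libraries, at a log2 fold change of 3.90 (SE 1.07, adjusted p = 0.0354), and 3.35 (SE 1.11, adjusted p = 0.115) without replicate 3.

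The serum amyloid A genes had the largest rises, ranked without antiPD1 replicate 3. The ranking covers genes that passed in both fits, averaged at least 5 CPM in antiPD1 libraries and did not overlap between groups. Serum amyloid A genes encode acute phase proteins of liver and of inflamed tissue and lie side by side on chromosome 7. Saa2 (46751790 to 46754313) had 133, 238 and 1374 CPM in antiPD1 libraries, against 1.81, 7.43 and 2.14 CPM in untreated libraries. Saa1 (46740497 to 46742980) had 155, 216 and 1256 CPM in antiPD1 libraries, against 3.23, 11.8 and 4.21 CPM in untreated libraries. Saa3 (46711998 to 46715700), the family member made mainly by macrophages and other cells outside the liver, had 32.4, 81.7 and 476 CPM in antiPD1 libraries, against 2.62, 1.22 and 1.49 CPM in untreated libraries. The antiPD1 libraries were above every untreated library by an order of magnitude or more, and replicate 3 was several times higher again. Log2 fold changes were 7.27 (SE 1.02, adjusted p = 0.0137) for Saa2, 6.40 (SE 0.92, adjusted p = 0.0139) for Saa1 and 6.79 (SE 0.97, adjusted p = 0.0139) for Saa3. Without replicate 3 they were 5.64, 4.88 and 5.02, all with an adjusted p under the threshold (0.00826, 0.00906 and 0.00623). Saa1 and Saa2 are close copies, and the counting could have assigned reads of either to the other.

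**Figure D3:**
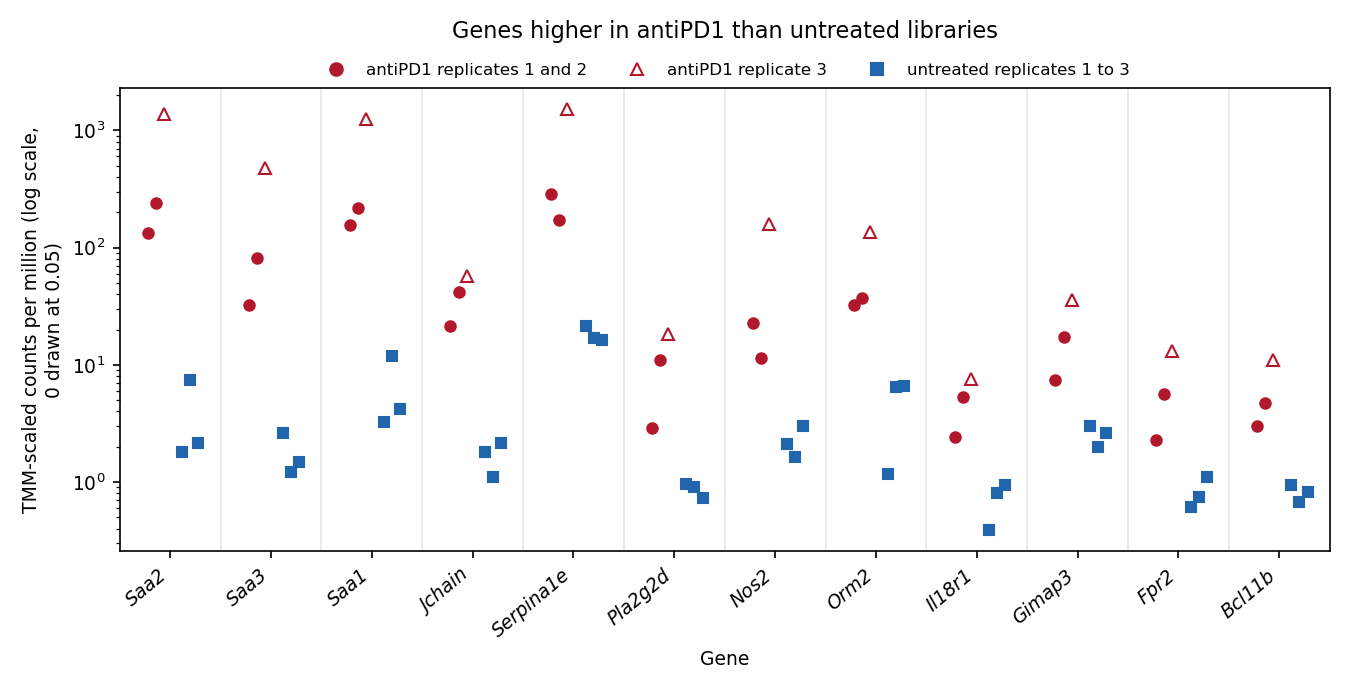
CPM in each library (log axis) of the 12 genes with the largest rise (ranked without antiPD1 replicate 3) among those that passed with and without that library, averaged at least 5 CPM in antiPD1 libraries and had no overlap of the groups, antiPD1 values left of untreated values for each gene. By that choice all antiPD1 values lie above all untreated values, and antiPD1 replicate 3 (open triangle) is the highest library for every one of the 12, from 7.54 CPM for Il18r1 to 1514 CPM for Serpina1e.

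Orm2, an orosomucoid, had 32.7, 37.1 and 136 CPM in antiPD1 libraries, against 1.16, 6.41 and 6.56 CPM in untreated libraries, and was the fourth acute phase gene to pass in both fits. Of 26 acute phase genes 12 rose and 0 fell. The list was uneven: its median log2 fold change was 2.73 with all libraries and 1.26 without antiPD1 replicate 3, and its summed level was 9575, 8135 and 30983 CPM in antiPD1 libraries, against 10840, 10100 and 9947 CPM in untreated libraries, so that replicates 1 and 2 were below the untreated libraries in the sum. Of 22 complement genes 11 rose. C5ar1, the C5a receptor of myeloid cells, had 11.2, 9.63 and 21.6 CPM in antiPD1 libraries, against 1.78, 2.53 and 4.88 CPM in untreated libraries, and Cfp, properdin, had 28.9, 31.2 and 115 CPM in antiPD1 libraries, against 16.5, 14.6 and 17.8 CPM in untreated libraries. These were the 2 complement genes that passed without replicate 3. Pla2g2d, a secreted phospholipase of dendritic cells and macrophages, had 2.89, 11 and 18.2 CPM in antiPD1 libraries, against 0.970, 0.912 and 0.732 CPM in untreated libraries.

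Some genes of the hepatoma fell, by small amounts. Of 16 oncofetal and hepatoma genes tested 0 rose and 6 fell, with a median log2 fold change of −0.63, and −0.65 without replicate 3, where 2 passed. The share of all genes that fell was 5.11%, and 0.991% without replicate 3. Afp, alpha-fetoprotein, the fetal serum protein of hepatomas, had 7326, 6247 and 7518 CPM in antiPD1 libraries, against 10831, 10733 and 9598 CPM in untreated libraries. The groups did not overlap, at a log2 fold change of −0.56 (SE 0.14, adjusted p = 0.0284), and −0.60 (SE 0.17, adjusted p = 0.0750) without replicate 3. Igf2bp3, an oncofetal RNA-binding protein, had 74.3, 73.5 and 59.4 CPM in antiPD1 libraries, against 116, 116 and 92.7 CPM in untreated libraries. Epcam, an epithelial adhesion molecule of hepatoblasts and hepatomas, had 107, 105 and 80.5 CPM in antiPD1 libraries, against 150, 163 and 135 CPM in untreated libraries. These last 2 genes passed in both fits, whereas Alb, given above, did not change by the test (log2 fold change 0.08, adjusted p = 0.842).

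Of 19 liver transcription factor genes 5 fell and 0 rose. Tbx3, a T-box factor and Wnt target of liver tumours, had 315, 347 and 229 CPM in antiPD1 libraries, against 580, 534 and 438 CPM in untreated libraries, and passed in both fits (log2 fold change −0.80 with all libraries, SE 0.16, adjusted p = 0.0198). Hnf4a, the master factor of hepatocyte identity, had 221, 260 and 243 CPM in antiPD1 libraries, against 415, 389 and 325 CPM in untreated libraries. Its log2 fold change was −0.64 (SE 0.18, adjusted p = 0.0393), and −0.63 (SE 0.21, adjusted p = 0.112) without antiPD1 replicate 3. Of 12 Wnt targets 5 fell, with a median of −0.70, and −0.42 without replicate 3. Wif1, a secreted Wnt inhibitor, had 0.765, 0.747 and 1.11 CPM in antiPD1 libraries, against 8.60, 6.58 and 3.48 CPM in untreated libraries, and Sp5 had 24.1, 16.1 and 9.79 CPM in antiPD1 libraries, against 48.3, 60.2 and 31.2 CPM in untreated libraries.

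The 3 genes with the largest falls among those that passed in both fits with at least 5 CPM in untreated libraries are liver enzymes known in mice to be higher in females. Cyp2a4, a steroid hydroxylase (chromosome 7, 26307169 to 26315088), had 2.64, 1.25 and 2.32 CPM in antiPD1 libraries, against 255, 120 and 39.3 CPM in untreated libraries. The lowest untreated library was more than an order of magnitude above the highest antiPD1 library, while the untreated libraries differed widely among themselves. The log2 fold change was −6.06 (SE 0.73, adjusted p = 0.0112), and −6.13 (SE 0.91, adjusted p = 0.0298) without antiPD1 replicate 3. Sult2a1, a sulfotransferase of steroids and bile acids, had 0.312, 0.083 and 0 CPM in antiPD1 libraries, against 13.8, 3.61 and 1.89 CPM in untreated libraries. Cyp3a16, of the CYP3A family, had 2.52, 1.33 and 2.15 CPM in antiPD1 libraries, against 48.2, 15.1 and 11.5 CPM in untreated libraries. Both genes also passed without replicate 3. The Cyp2a and Cyp3a families have near copies, so the share of reads of each member is uncertain. In all 3 genes untreated replicate 1 was the highest library and untreated replicate 3 the lowest of its group.

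**Figure D4:**
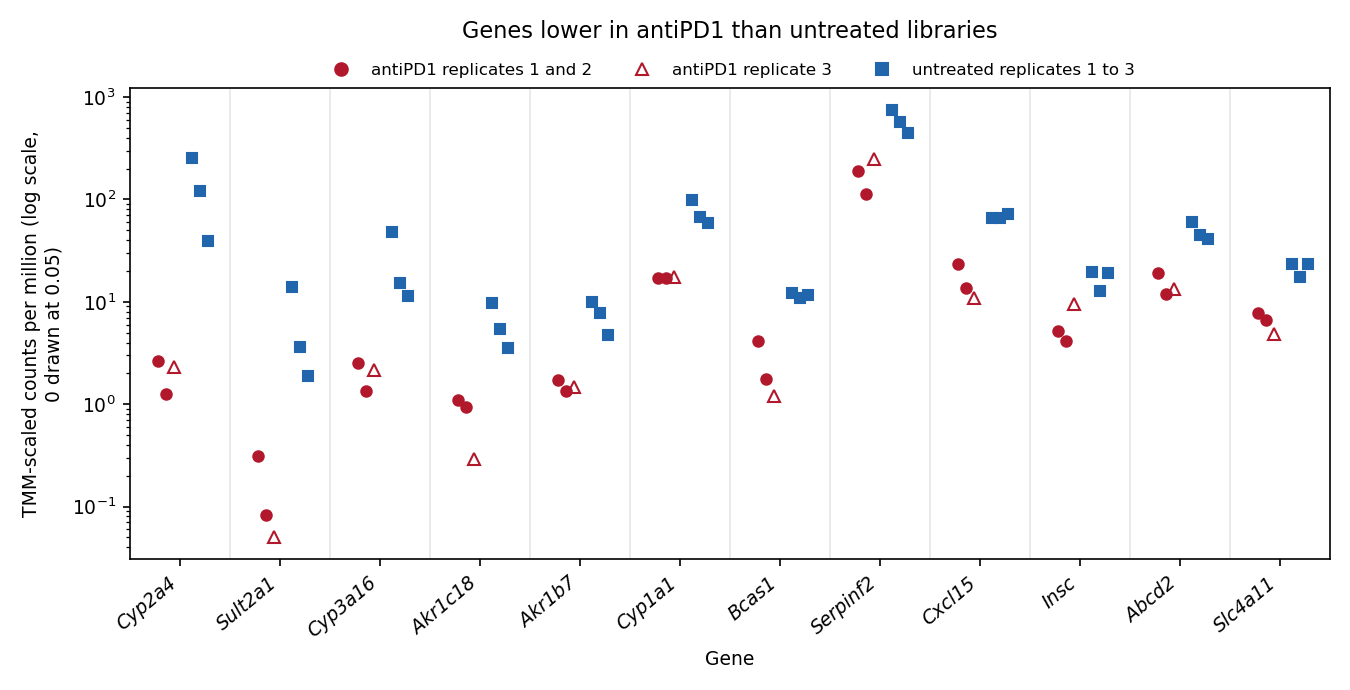
CPM in each library (log axis) of the 12 genes with the largest fall (ranked without antiPD1 replicate 3) among those that passed with and without that library, averaged at least 5 CPM in untreated libraries and had no overlap of the groups, antiPD1 values left of untreated values for each gene. By that choice all antiPD1 values lie below all untreated values. AntiPD1 replicate 3 (open triangle) is the lowest library for some genes, such as Sult2a1 (0 counts), and the highest of its group for others, such as Serpinf2 (250 CPM).

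Other enzymes of detoxification fell with a steadier pattern. Cyp1a1, the classical target of the aryl hydrocarbon receptor, had 17.2, 17.2 and 17.4 CPM in antiPD1 libraries, against 98.5, 67.4 and 59.2 CPM in untreated libraries. Its 3 antiPD1 values were all but equal, with a log2 fold change of −2.12 (SE 0.34, adjusted p = 0.0186), and −2.11 (SE 0.42, adjusted p = 0.0414) without replicate 3. Akr1b7, an aldo-keto reductase, had 1.73, 1.36 and 1.47 CPM in antiPD1 libraries, against 9.99, 7.83 and 4.73 CPM in untreated libraries. Ugt2b34, a glucuronosyltransferase, had 156, 114 and 153 CPM in antiPD1 libraries, against 296, 256 and 230 CPM in untreated libraries. Of 32 cytochrome P450 genes 1 rose and 4 fell, and of 36 conjugation and detoxification genes 4 rose and 7 fell. Without replicate 3, 0 of the rises and 3 and 4 of the falls in these lists passed. The medians of both lists were above 0 with all libraries, at 1.67 and 0.31, while their calls were more often falls. Without that library the medians were 0.56 for the cytochrome P450 list and −0.29 for the conjugation list.

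Several genes outside the lists fell as well. Cxcl15, a chemokine of the CXC family known as lungkine, had 23.2, 13.5 and 11 CPM in antiPD1 libraries, against 66.0, 66.2 and 72.5 CPM in untreated libraries, with a log2 fold change of −2.10 (SE 0.28, adjusted p = 0.0112), and −1.88 (SE 0.29, adjusted p = 0.0319) without replicate 3. Slc4a11, a membrane transporter, had 7.74, 6.70 and 4.86 CPM in antiPD1 libraries, against 23.3, 17.5 and 23.6 CPM in untreated libraries. Serpinf2, the plasmin inhibitor alpha-2-antiplasmin, had 189, 112 and 250 CPM in antiPD1 libraries, against 753, 566 and 441 CPM in untreated libraries. Abcd2, a peroxisomal fatty acid transporter, had 19.1, 11.8 and 13.3 CPM in antiPD1 libraries, against 59.9, 44.6 and 40.9 CPM in untreated libraries. None of these genes overlapped between the groups.

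A few sterol and cell cycle genes fell, beside 5.11% of all genes tested. Of 23 cholesterol genes 5 fell and 0 rose, and none passed without antiPD1 replicate 3. Of 31 cell cycle genes 3 fell and none passed without replicate 3. In 23 of them all antiPD1 values were below all untreated values, beside 18.6% of all genes tested, and the median log2 fold change was −0.46, and −0.44 without replicate 3. The 3 were Ccnb1, cyclin B1, Cdc20, an activator of the anaphase-promoting complex, and Cdc25c, a phosphatase of mitotic entry. Ccnb1 had 54.1, 59.3 and 46.9 CPM in antiPD1 libraries, against 112, 82.2 and 99.6 CPM in untreated libraries, at an adjusted p of 0.0387, and 0.147 without replicate 3. Mki67, the proliferation marker Ki-67, had 197, 253 and 237 CPM in antiPD1 libraries, against 308, 286 and 331 CPM in untreated libraries and did not pass (log2 fold change −0.43, adjusted p = 0.281).

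Genes of adult liver were the ones in which antiPD1 replicate 3 differed most from its own group. Of the 25 adult hepatocyte enzyme genes 0 rose and 0 fell, yet the list's median log2 fold change was 1.86 with all libraries and 0.64 without that library. The summed level was 1865, 1063 and 5391 CPM in antiPD1 libraries, against 721, 962 and 1400 CPM in untreated libraries. The 2 members with the smallest p were Uox, urate oxidase, with 61.1, 15.9 and 204 CPM in antiPD1 libraries, against 4.27, 8.0 and 20.2 CPM in untreated libraries, and Fbp1, an enzyme of gluconeogenesis, with 32.2, 14.4 and 143 CPM in antiPD1 libraries, against 2.91, 6.28 and 17.5 CPM in untreated libraries. Their groups overlapped. Among the 10 genes that were highest in replicate 3 relative to replicates 1 and 2, chosen by that ratio and given as a description, were Slc25a47, a mitochondrial carrier of hepatocytes, with 9.12, 5.76 and 91.5 CPM in antiPD1 libraries, and Cyp1a2, a P450 of adult liver, with 7.71, 14.1 and 119 CPM in antiPD1 libraries. Slc25a47 had 6.85, 6.41 and 8.15 CPM in untreated libraries and Cyp1a2 19.5, 10.9 and 10.6 CPM, so that only replicate 3 was far above the untreated range. Ctla4 was the one T cell gene among the 10. The 5 genes lowest in replicate 3 by the same measure were Amotl2, Irs1, Cpm, Scd2 and Msln. Scd2, a desaturase of fatty acids, had 815, 564 and 257 CPM in antiPD1 libraries, against 1253, 1327 and 830 CPM in untreated libraries.

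Genes with a known sex bias in mouse liver and on the Y chromosome also differed between the groups. Of the 16 major urinary protein and male-biased liver genes in the table, 6 had enough counts to be tested. Of those 5 rose, beside 9.77% of all genes tested. Mup21 and Elovl3 reached the minimum of 10 counts in the antiPD1 libraries only. For such members the filter itself favoured a rise, so the count of rises is not read as a result about the list. Mup3 had 37.8, 84.2 and 690 CPM in antiPD1 libraries, against 1.39, 0.979 and 7.08 CPM in untreated libraries, and Mup20 had 24, 104 and 684 CPM in antiPD1 libraries, against 7.01, 1.79 and 13.6 CPM in untreated libraries. Mup genes are near copies of one another, and the counts of single members are uncertain. Serpina1e, an alpha-1-antitrypsin, had 285, 172 and 1514 CPM in antiPD1 libraries, against 21.6, 16.8 and 16.3 CPM in untreated libraries and passed in both fits, with a log2 fold change of 3.66 (SE 0.51, adjusted p = 0.0298) without replicate 3.

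All 4 Y-linked genes rose, and none passed without antiPD1 replicate 3. Ddx3y, an RNA helicase, had 20.1, 11.6 and 43.7 CPM in antiPD1 libraries, against 4.69, 4.29 and 11.1 CPM in untreated libraries, and Uty, a histone demethylase homologue, had 4.45, 2.88 and 9.73 CPM in antiPD1 libraries, against 1.10, 1.22 and 2.20 CPM in untreated libraries. The groups did not overlap, and untreated replicate 3 was the highest of its group in each. Of the 11 female-biased liver genes in the table, 6 could be tested. Of those 3 fell, Cyp2a4, Sult2a1 and Cyp3a16 above, beside 5.11% of all genes tested. The sums of these lists by library are in the plot of list sums. The share of these differences in the other gene groups was not tested.

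Stromal genes rose in part. Of 19 fibroblast and pericyte genes 7 rose and 0 fell, with a median log2 fold change of 1.29, and 0.96 without antiPD1 replicate 3, where none passed. Thy1, shared by fibroblasts and T cells, had 17.0, 23.5 and 48.3 CPM in antiPD1 libraries, against 11.4, 6.01 and 13.3 CPM in untreated libraries. Rgs5, a pericyte gene, had 97.9, 109 and 148 CPM in antiPD1 libraries, against 47.6, 42.7 and 88.3 CPM in untreated libraries. Of 22 matrix genes 5 rose, and 2 passed without replicate 3. Of all genes tested 9.77% rose, and 1.71% without that library. The matrix list summed to 13379, 10439 and 10354 CPM in antiPD1 libraries, against 12807, 13768 and 12494 CPM in untreated libraries. The fibroblast and pericyte list summed to 2439, 1710 and 4563 CPM in antiPD1 libraries, against 825, 543 and 1898 CPM in untreated libraries. For both sums the groups overlapped. Mmp2, a gelatinase of fibroblasts, had 19.9, 16.6 and 66.3 CPM in antiPD1 libraries, against 7.27, 2.60 and 6.16 CPM in untreated libraries, and Thbs2, thrombospondin-2, had 18.5, 13.5 and 58.3 CPM in antiPD1 libraries, against 4.94, 2.97 and 4.94 CPM in untreated libraries. The log2 fold change of Mmp2 was 2.68 (SE 0.54, adjusted p = 0.0198), and 1.78 (SE 0.37, adjusted p = 0.0414) without replicate 3. Of 22 endothelial genes 0 rose. The single fall in that list, Prox1, is a factor of lymphatic endothelium and of hepatocytes alike, with 177, 220 and 198 CPM in antiPD1 libraries, against 310, 331 and 252 CPM in untreated libraries.

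Metabolic lists showed few calls. P4ha1, a collagen prolyl hydroxylase in the hypoxia list, was the clearest, with 155, 137 and 146 CPM in antiPD1 libraries, against 87.1, 89.8 and 82.9 CPM in untreated libraries. Both groups were tight, and the log2 fold change was 0.75 (SE 0.10, adjusted p = 0.0112), and 0.77 (SE 0.11, adjusted p = 0.0298) without antiPD1 replicate 3. The other 15 hypoxia genes did not pass. Slc16a3, the lactate exporter MCT4, had 28.8, 12.9 and 52.1 CPM in antiPD1 libraries, against 4.82, 6.48 and 9.24 CPM in untreated libraries and passed in both fits. Of 22 oxidative phosphorylation genes 1 fell, Atp5a1, a subunit of ATP synthase, with 926, 928 and 917 CPM in antiPD1 libraries, against 1228, 1158 and 1015 CPM in untreated libraries. In the stress response list Hspa1a and Hspa1b, inducible HSP70 genes that are near copies, had 6.21, 17.5 and 97.8 CPM and 7.25, 20.5 and 136 CPM in antiPD1 libraries, against 0.776, 2.57 and 5.03 CPM and 0.743, 2.03 and 4.42 CPM in untreated libraries. The 250 bases upstream of the pair are identical at 247 positions in RefSeq, and replicate 3 was again the highest antiPD1 library. None of the immediate early, adipocyte or skeletal muscle genes passed. Of 9 erythroid and platelet genes 1 rose, Pf4, platelet factor 4, with 12.4, 6.23 and 16.3 CPM in antiPD1 libraries, against 1.52, 1.69 and 3.94 CPM in untreated libraries.

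**Figure D5:**
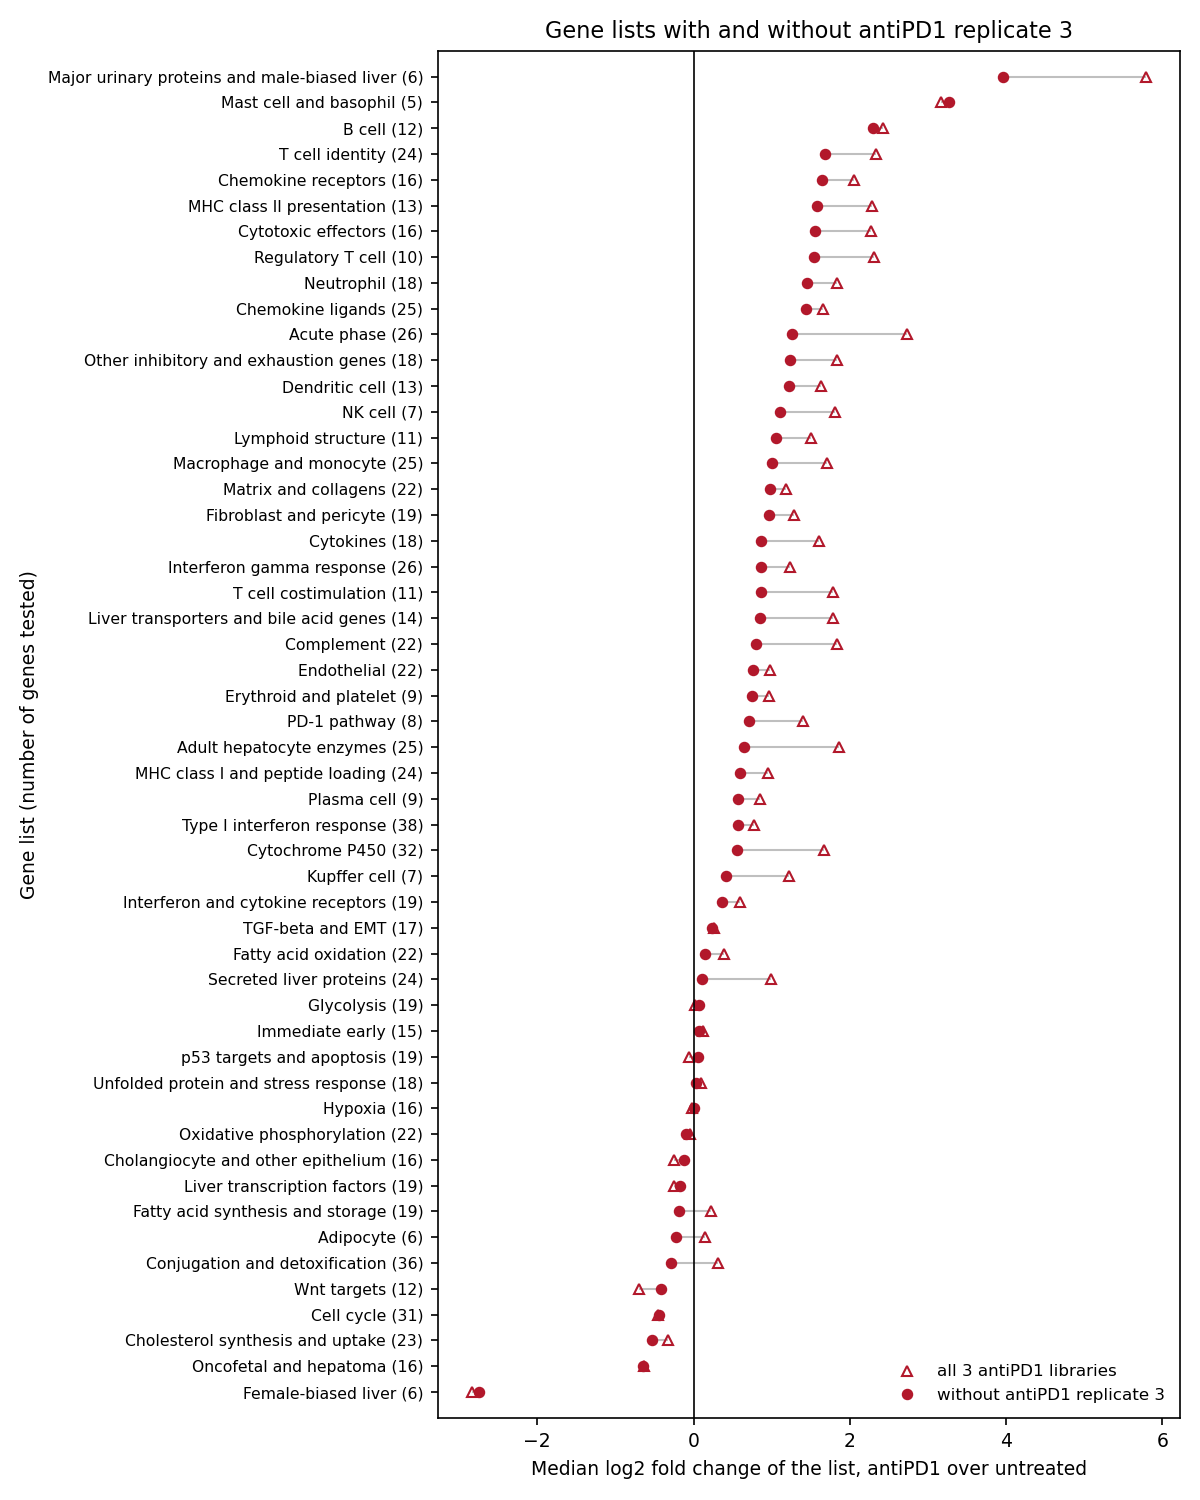
Median log2 fold change (antiPD1 over untreated) of each gene list with at least 5 genes tested, with all 3 antiPD1 libraries (open triangles) and without antiPD1 replicate 3 (filled circles), joined by a line; the number of genes tested stands in parentheses. Immune lists stay above 0 in both, and the male-biased liver, acute phase and adult liver lists shift most (adult hepatocyte enzymes have 1.86 with replicate 3 and 0.64 without). The oncofetal list stays near −0.63.

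The study holds a second contrast of an antibody against PD-1, the combination of IFNa and antiPD1 against IFNa alone. It shares no library with the first, but both came from 1 fit whose spread was estimated over all 12 libraries. Calls made in both are therefore not independent. IFNa replicate 1 stood apart, with a voom quality weight of 0.2, against 2.37 and 0.895 for IFNa replicates 2 and 3. In the second contrast 42 genes rose (0.302%) and 84 fell (0.603%). Of the 1361 genes that rose with antiPD1 over untreated, 24 (1.76%) also rose in that contrast, and of the 712 that fell, 54 (7.58%) also fell, with 0 called in the opposite direction. By sign alone, 1338 of the 1361 rises (98.3%) were above 0 there, beside 51.9% of all genes tested, and 636 of the 712 falls (89.3%) were below 0, beside 48.1%. Among the genes called in both contrasts were Jchain, with a log2 fold change of 3.64 (SE 0.41, adjusted p = 0.0106) in the second contrast, Tnfsf10 with 1.94 (adjusted p = 0.0315), Cd200r1 with 1.91 (adjusted p = 0.0376), Cyp2a4 with −5.53 (adjusted p = 0.0120) and Cyp3a16 with −3.44 (adjusted p = 0.0267). Cxcl15 and Cyp1a1 were not, with values of −0.01 (adjusted p = 0.993) and −0.28 (adjusted p = 0.644), and whether the contrasts differ for these genes was not tested. Jchain had 27.8, 22.3 and 22.2 CPM in combination libraries, against 1.11, 2.06 and 2.59 CPM in IFNa libraries. Pdcd1, Cd274 and Saa2 were not called in the second contrast (adjusted p of 0.121, 0.118 and 0.0625).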

How the data were processed

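Total RNA of 12 Hepa1-6 libraries, 3 per group, was compared. The assembly mm10 and the tools HISAT2 2.1.0, Cufflinks and HTSeq are named per the submitters' processing notes. No source used here gives the annotation or strand setting, so overlapping and antisense genes cannot be told apart. The deposited count table holds raw read counts per gene as the authors made them, and the deposited FPKM table holds the authors' values for the same genes, used only as an alternative. Columns were matched to samples by their labels.

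With R 4.3.3, edgeR 4.0.16 (TMM scaling, robust quasi-likelihood fit, 12 libraries, 1 mean per group) gave the tests. Benjamini-Hochberg adjustment ran over 13926 genes, and 0.05 was the threshold. Alternatives used DESeq2 1.42.0 and limma 3.58.1 (voom, and log2(FPKM + 1) or log2(FPKM + 0.1)), other filters and scaling, and fits without each library. Fold changes of genes with 0 counts in a library depend on the prior count. An SE was computed from the F statistic, so it restates the test, and it reflects only counting error and how these libraries varied. Coordinates are from GENCODE M21.

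The comparison, 57 gene lists and the genes to name were chosen with earlier results of these data known. Named were the largest changes (12 per direction at most, ranked without antiPD1 replicate 3) among genes that passed with and without that library, had separate groups and a mean of 5 CPM or more in 1 of them, up to 4 members per list that passed (2 with the smallest p where none did), 10 genes highest and 5 lowest in antiPD1 replicate 3, and 23 genes chosen in advance. Others are marked as chosen after their values were seen. A few genes are not reported here.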

Additional observations from a re-analysis of the deposited data

How the results depend on the processing

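The total of 2073 calls moved with several settings. It was 1 in a test against a minimum change of 2-fold, 0 with the 6 antiPD1 and untreated libraries alone, 3221 with DESeq2, 1291 with limma on log2(FPKM + 1), and 732 with that scale and no filter. The 376 calls made without antiPD1 replicate 3 became 0 when only the other 5 antiPD1 and untreated libraries were fitted, with 3082 genes at an unadjusted p under 0.05. The total was 2039 with RLE size factors, 1799 without a filter, 2605 with voom quality weights and 1658 on log2(FPKM + 0.1). Leaving out 1 library in turn gave 5 to 2936 calls. The lowest totals came without untreated replicate 1 (5) and untreated replicate 2 (6), the next without antiPD1 replicate 3 (376) and combination replicate 3 (1228). In every setting the 2073 genes kept their sign. The settings share libraries with the fit that chose these genes, so this is not independent support. The share of calls that rose was 65.7%, between 58.3% and 74.1% in the other settings with over 100 calls. The cause of these changes was not tested. A fit of fewer libraries has fewer degrees of freedom for the spread, whichever library is left out.

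The 78 antiPD1 calls shared with the combination against IFNa became 983 with DESeq2 and 433 with the replicate block, and 0 to 255 with 1 library left out. Same-numbered antiPD1 and untreated libraries did not deviate together for every number (r of −0.014, 0.381 and 0.455 for numbers 1, 2 and 3), so the numbers are not taken to pair the samples. A fit with the replicate number as a block called 2355 genes. Of 109 named calls, none changed sign in these settings, 64 kept their call without antiPD1 replicate 3, and 5 and 6 kept it without untreated replicate 1 and without untreated replicate 2.

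Of the named genes without a call, 6 changed sign in 1 or more settings. Alb, Apoe and Cyp1a2 had log2 fold changes of −0.22, −0.28 and −0.31 without antiPD1 replicate 3, in the fit of all groups and in that of antiPD1 and untreated libraries alone, and of −0.13, −0.24 and −0.10 with voom quality weights. Over the fits with 1 library left out their ranges were −0.22 to 0.33 for Alb, −0.28 to 0.40 for Apoe and −0.31 to 2.28 for Cyp1a2. Ly6g had −0.01 with no filter, −0.03 with the replicate block, −0.05 on log2(FPKM + 1) with and without a filter, −0.09 on log2(FPKM + 0.1) and −0.36 to 0.29 with 1 library left out. Msln had −0.14 with the replicate block, −0.09 on log2(FPKM + 1) with and without a filter, −0.12 on log2(FPKM + 0.1) and −0.58 to 0.40 with 1 library left out. Amotl2 ranged over −0.19 to 0.51 with 1 library left out.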

Other observations

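Gene lists outside the comparison of antiPD1 and untreated libraries have values in the other groups. The Y-linked list summed to 52.1, 30.6 and 39.1 CPM in combination libraries, against 27.3, 15.4 and 18.1 CPM in IFNa libraries. The female-biased liver list summed to 3.56, 2.01 and 1.94 CPM in combination libraries, against 90.5, 65.5 and 88.8 CPM in IFNa libraries. For both lists the libraries given the antibody lay on the same side of those without it as in the comparison above, and within each contrast the groups did not overlap.

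Pancreatic acinar genes differed within the untreated group. Ctrb1, a chymotrypsinogen, had 0.283, 0.0830 and 0.0979 CPM in antiPD1 libraries, against 0.0646, 9.22 and 5.09 CPM in untreated libraries. Untreated replicate 1 and the 3 antiPD1 libraries were all near the floor of 3 counts. Globin RNA also varied within groups, and Hbb-bs, a beta globin, had 291, 34.2 and 205 CPM in antiPD1 libraries, against 57.0, 103 and 137 CPM in untreated libraries. These genes were chosen after their values were seen.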
